A study of Mus musculus with 12 samples.

Results

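The response of neural stem cells (NSCs) without Gli1 to a cuprizone diet was measured by RNA sequencing. The comparison took the 3 libraries labelled Gli1-Null cuprizone diet against the 3 labelled Gli1-Null control diet, 6 of the 12 libraries of the series, and covered every gene that could be tested. The other 6 libraries come from heterozygous (Gli1Het) mice on the same diets and are used only to set the response beside theirs. All 6 Gli1Null libraries carry CreERT2 in both copies of Gli1, which makes the deletion global and lifelong, together with the RCE reporter, on a C57BL/6 background. All mice received tamoxifen (5 mg in each of 4 injections) at 10 weeks of age, which switches on GFP in cells with an active Gli1 locus and in their descendants. The cuprizone groups then ate 0.2% cuprizone for 3 weeks and the control groups ate normal chow. Each library pooled the subventricular zone (SVZ) cells of 2 mice, 1 male and 1 female, that were sorted by FACS for GFP without a viability dye. Since a replicate is such a pool, the tests set differences against the variation from pool to pool. The paper reports a trypan blue check on part of the sorted cells, by which most cells of every sample were viable.

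Cuprizone is a copper chelator that kills mature oligodendrocytes and demyelinates the corpus callosum, the tract that lies over the SVZ. NSCs of the SVZ are astrocyte-like cells that are mostly quiescent. When active they produce dividing transit-amplifying cells and then neuroblasts for the olfactory bulb, and near demyelinated tissue some make oligodendrocyte progenitors (OPCs). GLI1 is a transcription factor at the end of the Hedgehog pathway, and the GFP gate keeps NSCs together with the progeny they made after tamoxifen. In such bulk libraries fewer cells of a type and less RNA per cell cannot be told apart.

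Reads counted in genes numbered 27307762 to 30823443 in the control and 27703507 to 32468063 in the cuprizone libraries of Gli1Null mice. Mitochondrially encoded transcripts, whose share can rise in stressed cells, took 0.802% ± 0.159 (SD, n = 3) and 0.883% ± 0.184 of the counts (two-sided exact permutation test, p = 0.6, where 0.1 is the smallest p that 3 against 3 allow). Counts were found in 21806 ± 23.3 and 21578 ± 171 genes. The share of aligned reads outside annotated features was 56.2% to 57.5% on the control diet and 54.5% to 55.0% on cuprizone, without overlap (exact p = 0.1), and its part in the results was not tested. In a principal component analysis the first component held 50.3% of the variance and placed the control libraries between -37.9 and -32.6 and the cuprizone libraries between 31.0 and 40.5. Pairs of libraries on different diets lay on average 87.7 log2 units apart over all genes, against 68.8 for pairs of control and 54.5 for pairs of cuprizone libraries. Gli1 itself (mm10 chromosome 10, 127330000 to 127342000, minus strand) stood at 0.362, 0.389 and 0.293 CPM (counts scaled to 1e+06 counts in genes) in control replicates 1, 2 and 3 and at 0.626, 0.469 and 0.739 CPM in the cuprizone libraries. Both are far under the 8.65 to 18.3 CPM of the Gli1Het control libraries, and the difference between the diets did not pass (log2 fold change 0.84, standard error 0.40, adjusted p = 0.161). Log2 fold changes (log2FC) here are cuprizone over control from edgeR's quasi-likelihood test on the 6 Gli1Null libraries. Each adjusted p is from that test with Benjamini-Hochberg adjustment over the 16803 genes tested. The exceptions are the interaction of genotype and diet and the Gli1Het log2 fold changes. Those are from the fit of all 12 libraries, with adjustment over 17623 genes. Levels are in CPM, in the order of replicates 1, 2 and 3, the control diet first.

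Many genes differed between the diets, most of them by small amounts. At an adjusted p under 0.05, 4193 genes (25.0%) passed, of which 2407 (14.3%) were higher and 1786 (10.6%) lower on cuprizone. Counts of list members given further on are to be read against these shares. Some genes are in more than 1 list, so the counts of different lists are not independent. Rises reached further than falls. More than 2-fold changes were found for 614 of the higher and 176 of the lower genes, and more than 4-fold changes for 121 and 23. Another 1002 higher and 1190 lower genes changed by less than 1.5-fold. The median log2 fold change over all tested genes was -0.01, and in 28 called genes the groups overlapped. Whether called or not, 20.4% of the tested genes were higher and 22.5% lower on cuprizone without overlap between the groups. Among protein coding genes 16.4% were higher and 11.2% lower, whereas 6.3% and 7.83% of long non-coding genes were. The counts depend on the libraries in the fit. Without cuprizone replicate 1 they fell to 2359 (1532 higher, 827 lower) and without cuprizone replicate 3 to 2589, while a fit that shared the spread with the more variable Gli1Het libraries called 638 (594 higher, 44 lower). No gene called in the 6 libraries had the opposite sign in any of these fits.

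**Figure D1:**
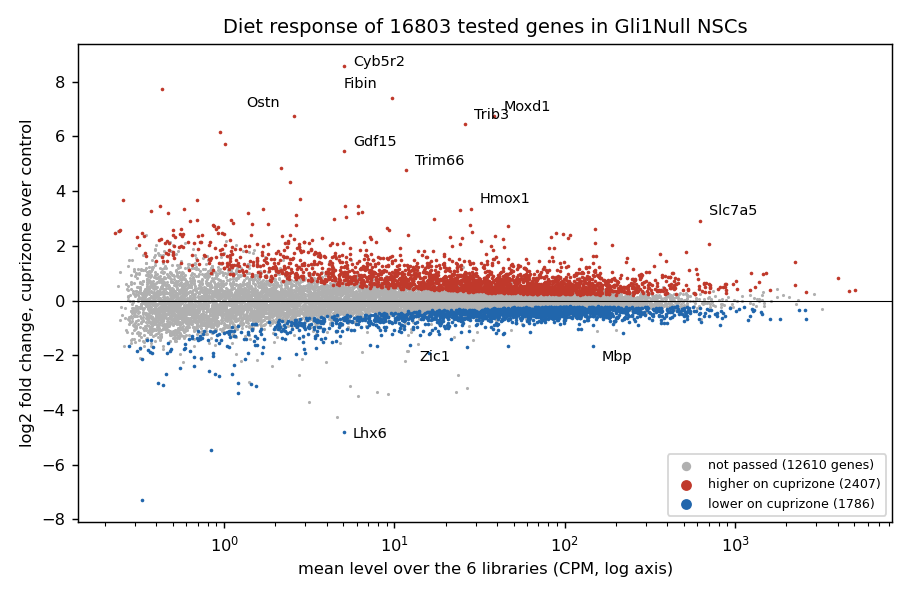
Log2 fold change (cuprizone over control, vertical axis) of each of the 16803 tested genes against its mean level over the 6 Gli1Null libraries (CPM, log axis), with the 2407 genes that were higher on cuprizone in red, the 1786 lower genes in blue and the rest in grey. The rises of Cyb5r2, Fibin, Moxd1, Ostn and Trib3, at log2 fold changes of 6.44 to 8.58, have no counterpart of that size among the falls of genes with over 5 CPM in the higher group, where Lhx6 at -4.81 is followed by H2-T23 at -1.90 when only genes without overlap between the diets are taken.

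The largest rises at 5 CPM or more were of genes that the control libraries hardly expressed. Moxd1, a relative of the copper enzyme dopamine beta-hydroxylase on mm10 chromosome 10, 24223500 to 24302800, plus strand, stood at 1.02, 0.357 and 0.806 CPM in control replicates 1, 2 and 3 and at 102, 61.6 and 65.4 CPM in cuprizone replicates 1, 2 and 3. The lowest cuprizone library was far above the highest control library, and the log2 fold change was 6.74 ± 0.33 (standard error, adjusted p = 4.17e-06). Cyb5r2, a cytochrome b5 reductase, had 2 counts over the 3 control libraries and 926 over the cuprizone libraries, a ratio of 445 with a 95% interval of 123 to 3678 that covers counting error only. Its relative Cyb5r1 rose from 13.2, 12.3 and 11.6 to 88.0, 85.0 and 66.6 CPM (log2 fold change 2.72, adjusted p = 3.33e-06). Cyb5r3, the abundant member of the family, stood at 81.9, 70.6 and 96.2 and 77.0, 91.9 and 92.3 CPM, its groups overlapped and it did not pass (log2 fold change 0.10, adjusted p = 0.581).

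Several of the other large rises were of genes for secreted proteins. Fibin, a secreted factor first described in fin development of zebrafish, went from 0.132, 0.0649 and 0.146 CPM to 26.9, 17.4 and 13.3 CPM (log2 fold change 7.39). Ostn, which encodes the peptide osteocrin, went from 0.0329, 0.0973 and 0 to 5.63, 4.15 and 5.57 CPM (log2FC 6.73). In both the groups lay far apart, with the highest level of Fibin in cuprizone replicate 1. Stc2, a secreted glycoprotein that blocks the processing of IGF-binding proteins, stood at 1.28, 0.0973 and 1.25 and 10.8, 7.98 and 9.24 CPM (log2FC 3.45, adjusted p = 0.00211). Igfbp3, which binds insulin-like growth factors, stood at 0.691, 0.292 and 0.183 and 2.41, 8.19 and 4.87 CPM (log2FC 3.72, adjusted p = 0.00134). Among these genes Igfbp3 was the least even within the cuprizone group. Its lowest cuprizone library was above all controls, which the rule for naming the largest rises required. Trim66, a chromatin reader of the tripartite motif family, rose from 0.889, 0.908 and 0.732 to 25.2, 24.1 and 18.6 CPM (log2FC 4.76 ± 0.20, adjusted p = 1.87e-06). Extl1, a glycosyltransferase of heparan sulfate synthesis, rose from 1.02, 0.876 and 1.25 to 12.5, 11.4 and 9.42 CPM (log2FC 3.44).

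The largest fall among genes with 5 CPM or more in the higher group and no overlap between the diets was of Lhx6, the LIM homeobox factor of interneurons that arise in the ventral (medial ganglionic) part of the forebrain. It stood at 7.60, 16.1 and 5.57 CPM on the control diet and at 0.438, 0.289 and 0.277 CPM on cuprizone (log2 fold change -4.81 ± 0.45, adjusted p = 1.74e-04). The control libraries differed among themselves, with replicate 2 highest, but each was far above the highest cuprizone library. Zic1, a zinc finger factor of dorsal and septal progenitors, fell from 20.5, 14.4 and 21.2 to 7.38, 4.04 and 6.31 CPM (log2FC -1.63, adjusted p = 0.00155), and the groups did not overlap. Tmem169, a membrane protein of little known function, fell from 31.7, 47.4 and 44.2 to 8.42, 12.2 and 17.0 CPM (log2FC -1.68) and Cnpy1, a relative of the FGF signalling regulators of the canopy family, from 10.1, 10.9 and 11.5 to 2.88, 3.72 and 3.85 CPM (log2FC -1.61). H2-T23, a non-classical MHC class I gene, came next to Lhx6 in size among the falls that met these limits (log2FC -1.90), and its fall rests on a single library. It stood at 56.1, 9.99 and 9.34 CPM in control replicates 1, 2 and 3 and at 6.19, 5.34 and 8.25 CPM on cuprizone, and it did not pass with DESeq2, without control replicate 1 or without any 1 cuprizone library.

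The integrated stress response (ISR) is a program in which phosphorylation of eIF2alpha lowers protein synthesis in general and favours translation of the transcription factor ATF4, which with C/EBP partners switches on genes for amino acid supply. Of the 23 tested members of a list of ISR transcription factors and regulators 16 were higher and 0 lower on cuprizone, with a median log2 fold change of 1.11 against -0.01 over all genes. Atf5, a factor of the ATF4 family, had the smallest adjusted p, together with Slc6a9, a transporter described further on, and went from 13.0, 12.4 and 12.9 to 64.8, 66.1 and 63.0 CPM (log2FC 2.37 ± 0.09, adjusted p = 1.84e-06). Within each diet its 3 libraries were nearly equal. Trib3, a pseudokinase that restrains ATF4 and is one of its targets, went from 0.691, 0.422 and 0.696 to 78.8, 41.1 and 34.3 CPM (log2FC 6.44 ± 0.39, adjusted p = 1.50e-05). Nupr1, a small stress-induced chromatin protein, went from 4.25, 4.64 and 4.72 to 50.4, 34.9 and 46.3 CPM (log2FC 3.30). The group levels of Trib3 and Nupr1 were far apart, with cuprizone replicate 1 the highest in both. Sesn2, an inhibitor of mTORC1 that senses leucine, went from 29.7, 24.5 and 28.9 to 183, 134 and 135 CPM (log2FC 2.48), and Eif4ebp1, the repressor of cap-dependent translation, from 20.2, 17.8 and 16.8 to 71.4, 62.2 and 75.6 CPM (log2FC 1.96). Atf4, which is controlled mostly at translation, changed least among the members named, from 175, 155 and 217 to 250, 248 and 232 CPM (log2FC 0.44 ± 0.12, adjusted p = 0.0207), and did not pass when any 1 cuprizone library was left out. The list count was steady, with 15 to 17 members higher when any 1 library was left out and 13 in the fit of all 12 libraries.

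The composite element that ATF4 and C/EBP factors bind was looked for in the RefSeq promoters (GRCm38.p6) as TGATGNAA, or TTNCATCA on the other strand, from 250 bases before to 50 bases after the start. No other motif was searched. Of 51 genes that rose in the lists for the ISR, amino acid transport, amino acid synthesis and cytosolic tRNA synthetases, 38 matched a promoter by symbol and 14 of these (36.8%) held the motif in at least 1 window. Of the 11202 tested genes with a promoter 312 (2.79%) held it, and of the 24 matched members of these lists that did not rise 3 (12.5%) did. Of all 32851 windows 3.97% held it. Among genes with a promoter, 73 of 1797 higher on cuprizone (4.06%) and 29 of 1233 lower (2.35%) held it. The lists were chosen with earlier results of these data known and gather kinds of genes that ATF4 switches on. Their share of the motif is thus partly set by that choice and does not test a role of ATF4. A match of letters is a description and not a binding site. In 10 of the 14 genes the motif lay within the 250 bases before the start. Those stretches are printed for 6 genes whose levels the account turns on, 5′ to 3′ on the strand of the gene, with the motif in capitals.
Asns (chr6:7693210-7693459, minus strand): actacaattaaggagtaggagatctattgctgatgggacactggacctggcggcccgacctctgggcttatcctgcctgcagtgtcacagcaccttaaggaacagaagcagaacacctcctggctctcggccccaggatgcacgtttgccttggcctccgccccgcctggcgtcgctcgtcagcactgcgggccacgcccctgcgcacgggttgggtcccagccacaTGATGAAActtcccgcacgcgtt
Slc7a11 (chr3:50443614-50443863, minus strand): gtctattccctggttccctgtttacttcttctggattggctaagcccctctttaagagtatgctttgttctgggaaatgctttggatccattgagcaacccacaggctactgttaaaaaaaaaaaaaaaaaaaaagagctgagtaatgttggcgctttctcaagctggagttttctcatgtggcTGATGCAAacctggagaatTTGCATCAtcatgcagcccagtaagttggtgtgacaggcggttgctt
Pycr1 (chr11:120643749-120643998, minus strand): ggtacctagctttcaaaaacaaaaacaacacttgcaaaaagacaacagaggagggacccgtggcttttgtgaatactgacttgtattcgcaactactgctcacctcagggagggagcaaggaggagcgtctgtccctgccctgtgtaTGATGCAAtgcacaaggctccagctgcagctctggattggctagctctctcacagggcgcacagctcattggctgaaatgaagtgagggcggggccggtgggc
Nupr1 (chr7:126625471-126625720, minus strand): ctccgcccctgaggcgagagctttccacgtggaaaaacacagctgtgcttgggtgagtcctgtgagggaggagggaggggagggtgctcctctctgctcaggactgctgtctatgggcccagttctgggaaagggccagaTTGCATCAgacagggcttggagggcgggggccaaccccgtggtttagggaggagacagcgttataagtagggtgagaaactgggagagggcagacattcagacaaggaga
Chac1 (chr2:119350992-119351241, plus strand): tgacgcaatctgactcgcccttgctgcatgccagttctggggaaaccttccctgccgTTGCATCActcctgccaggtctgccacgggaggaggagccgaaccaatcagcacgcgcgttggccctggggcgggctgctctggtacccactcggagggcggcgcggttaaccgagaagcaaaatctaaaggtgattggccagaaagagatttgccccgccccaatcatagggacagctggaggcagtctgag
Aars (chr8:111033592-111033841, plus strand): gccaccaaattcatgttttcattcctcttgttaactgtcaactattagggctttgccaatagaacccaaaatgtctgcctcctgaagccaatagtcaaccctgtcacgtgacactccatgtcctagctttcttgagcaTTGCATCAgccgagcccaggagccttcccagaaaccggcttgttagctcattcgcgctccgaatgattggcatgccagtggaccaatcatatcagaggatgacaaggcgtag

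Slc7a11 held the motif once on each strand, and the other 5 stretches held it once. Chac1, a glutathione-degrading enzyme chosen for its promoter after its values were seen, rose from 2.07, 2.73 and 6.88 to 29.5, 15.6 and 15.2 CPM (log2 fold change 2.41, adjusted p = 0.00381).

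Carriers of amino acids across the plasma membrane were among the abundant genes that rose. Of the 20 tested transporters 10 were higher and 3 lower (1 lower without cuprizone replicate 1 or 3), with a median log2 fold change of 0.45. Slc7a5 (LAT1, mm10 chromosome 8, 121881000 to 121908000, minus strand), which exchanges large neutral amino acids for glutamine, stood at 148, 153 and 143 CPM on the control diet and at 1265, 944 and 1061 CPM on cuprizone (log2FC 2.91 ± 0.12, adjusted p = 1.87e-06). Slc3a2 (CD98), the heavy chain that carries Slc7a5 and Slc7a11 to the membrane, went from 306, 245 and 279 to 1266, 1000 and 1102 CPM (log2FC 2.05). Slc7a11 (xCT), which imports cystine for glutathione, went from 43.6, 45.9 and 37.8 to 310, 226 and 234 CPM (log2FC 2.63). In all 3 the order of the cuprizone libraries was the same, with replicate 1 highest and replicate 2 lowest, and the groups lay far apart. Slc6a9 (GlyT1), a glycine transporter of astrocytes, was more even, from 54.0, 57.4 and 62.0 to 248, 240 and 242 CPM (log2FC 2.1 ± 0.08, adjusted p = 1.84e-06). Slc1a5 (ASCT2), an exchanger of small neutral amino acids, rose from 13.9, 15.4 and 15.7 to 65.0, 60.2 and 52.1 CPM (log2FC 2.01) and Slc38a1, a glutamine importer, from 316, 396 and 372 to 557, 577 and 542 CPM (log2FC 0.66).

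Enzymes that make amino acids and one-carbon units moved the same way. Of 18 tested genes for serine, one-carbon, asparagine and proline synthesis 13 were higher and 0 lower (median log2 fold change 0.98), and the count was 13 without any 1 library. Asns, asparagine synthetase, went from 35.4, 34.0 and 24.4 to 178, 149 and 164 CPM (log2FC 2.42). Psat1, in the serine pathway, went from 242, 231 and 177 to 634, 521 and 566 CPM (log2FC 1.44). Pycr1, the last enzyme of mitochondrial proline synthesis, went from 44.2, 40.9 and 41.8 to 127, 128 and 124 CPM (log2FC 1.60 ± 0.07, adjusted p = 2.72e-06). The groups of these 3 genes did not overlap, as was so for 20.4% of all tested genes in this direction. The 3 cuprizone levels of Pycr1 were nearly equal. Shmt2 and Mthfd2, mitochondrial enzymes that pass on one-carbon units from serine, rose with log2 fold changes of 1.07 and 1.19. Mat2a, which makes S-adenosylmethionine and is the most abundant of the list, stood at 784, 746 and 731 and 706, 751 and 677 CPM with overlapping groups (log2FC -0.06, adjusted p = 0.604).

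Of the 20 cytosolic tRNA synthetases, which load amino acids onto tRNAs, 12 were higher and 0 lower (median log2 fold change 0.52), with no change of the count without any 1 library. Eprs, for glutamate and proline, rose most, from 190, 193 and 217 to 497, 471 and 442 CPM (log2FC 1.26). Aars, for alanine, went from 226, 227 and 237 to 364, 367 and 386 CPM (log2FC 0.72), and Lars and Cars, for leucine and cysteine, had log2 fold changes of 0.89 and 0.61. Vars, for valine, stood at 263, 278 and 299 and 276, 324 and 298 CPM and did not pass (log2FC 0.12, adjusted p = 0.302). The mitochondrial synthetases had a median of 0.05, with 3 of 17 higher and 0 lower, and Lars2, the most abundant, stood at 2671, 2224 and 2164 and 2353, 2135 and 2559 CPM with overlapping groups.

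**Figure D2:**
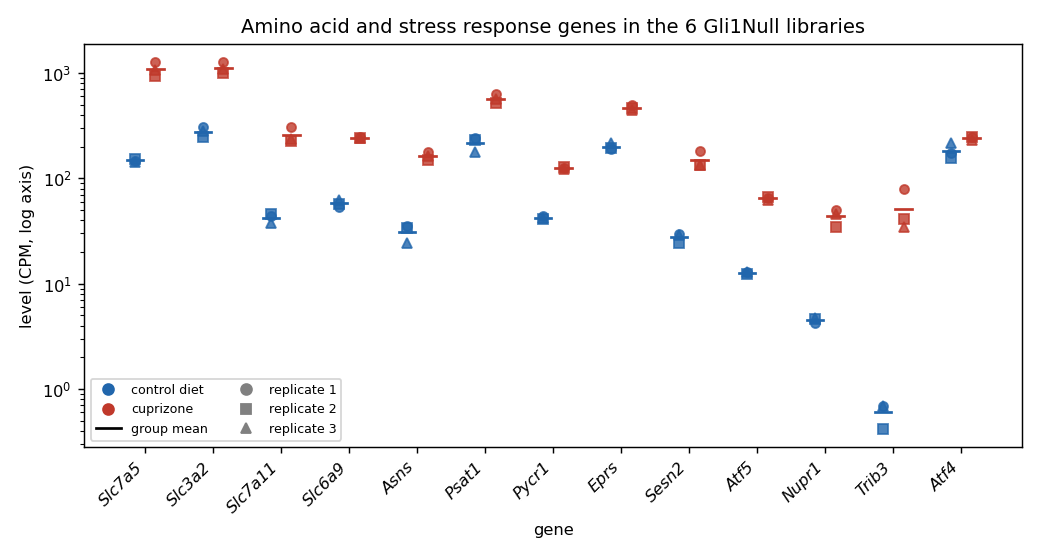
Level (CPM, log axis) of 13 amino acid and stress response genes in each Gli1Null library, with control diet in blue, cuprizone in red, marker shapes for replicates 1 to 3 and a line at each group mean. The groups do not overlap in any of the 13 genes, as for 20.4% of all tested genes in this direction, and the distance is widest for Trib3 (log2 fold change 6.44) and narrowest for Atf4 (0.44).

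Other stress programs were less uniform. Of 23 tested genes of the unfolded protein response of the endoplasmic reticulum 6 were higher and 0 lower (median log2 fold change 0.23). Herpud1, a degradation factor of that compartment, rose from 101, 87.0 and 99.2 to 227, 193 and 195 CPM (log2FC 1.13), and Hspa5 (BiP), its main chaperone, from 653, 548 and 541 to 703, 979 and 849 CPM (log2FC 0.56). Among 16 mitochondrial chaperones and proteases 7 were higher and 1 lower. Hspa9 (mortalin), the mitochondrial Hsp70, went from 329, 340 and 363 to 726, 764 and 688 CPM (log2FC 1.10), whereas Hspd1 (Hsp60) stood at 229, 211 and 220 and 214, 240 and 233 CPM with overlapping groups (log2FC 0.08, adjusted p = 0.44). The number of higher members of this list was 3 without cuprizone replicate 1 or 3 and 4 without cuprizone replicate 2 or control replicate 3. Few respiratory chain genes passed with all 6 libraries. Of 36 nuclear subunits of complex I 1 was higher and 0 lower (6 higher without control replicate 1), of 20 subunits and copper assembly factors of complex IV 2 were higher and 0 lower, and of 13 mitochondrially encoded genes 0 passed in edgeR (2 higher and 1 lower at an unadjusted p under 0.05), while DESeq2 called 1 higher and 1 lower. The 2 complex IV genes were Cox10, which takes part in making haem A (log2FC 0.57, not passed without cuprizone replicate 1), and Surf1, an assembly factor (log2FC 0.43, not passed without cuprizone replicate 2 or 3).

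Targets of p53, the factor that answers DNA damage and other stress with cell cycle arrest, repair or death, rose in part. Of 30 tested targets 10 were higher and 1 lower (median log2 fold change 0.25), and 9 to 11 were higher without any 1 library. Sesn2, described with the ISR, is also counted here. Cdkn1a (p21), the inhibitor of cyclin-dependent kinases, stood at 29.4, 29.2 and 25.1 CPM on the control diet and at 145, 130 and 136 CPM on cuprizone (log2FC 2.33 ± 0.09, adjusted p = 1.87e-06). Ephx1, an epoxide hydrolase, went from 8.23, 6.65 and 6.77 to 46.5, 49.5 and 47.8 CPM (log2FC 2.76), and Phlda3, an inhibitor of AKT, from 9.28, 9.02 and 7.51 to 40.5, 44.1 and 39.1 CPM (log2FC 2.29). All 3 were even within each diet and the groups lay far apart. Gdf15, a stress hormone that p53 and the ISR both induce, went from 0.362, 0.0324 and 0.293 to 17.2, 6.79 and 5.76 CPM (log2FC 5.46, adjusted p = 4.67e-04), with cuprizone replicate 1 highest. Btg2, an antiproliferative target, stood at 165, 167 and 180 and 182, 178 and 165 CPM and did not pass (log2FC 0.07, adjusted p = 0.559). In the fit of all 12 libraries 3 of the 30 targets were higher, and neither Cdkn1a nor Phlda3 passed there.

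Nrf2, the factor that answers oxidants, had 12 of 24 tested targets higher and 3 lower (median log2 fold change 0.33), with 1 lower without control replicate 3 or without any 1 cuprizone library. Slc7a11, described with the amino acid transporters, is also counted here. Hmox1, haem oxygenase 1, went from 5.33, 3.67 and 6.37 to 62.5, 41.3 and 49.0 CPM (log2FC 3.35 ± 0.23, adjusted p = 2.83e-05). Gclm, for glutathione synthesis, went from 93.4, 107 and 96.5 to 186, 175 and 170 CPM (log2FC 0.87) and Fth1, the ferritin heavy chain, from 788, 691 and 617 to 1021, 1057 and 1064 CPM (log2FC 0.61). The groups of these genes did not overlap, which holds for 20.4% of all tested genes in this direction. Gstm1, another abundant target, stood at 648, 583 and 528 and 543, 585 and 626 CPM with no difference that passed (log2FC 0.02, adjusted p = 0.886). Of 20 heat shock proteins 7 were higher and 3 lower, and the lower count was 0 without cuprizone replicate 1 and 1 without control replicate 2 or cuprizone replicate 2 or 3. Bag3, a co-chaperone of selective autophagy, rose from 14.3, 14.7 and 11.8 to 25.5, 30.2 and 29.9 CPM (log2FC 1.10), while Dnaja1, a J-domain co-chaperone, fell from 298, 307 and 287 to 223, 230 and 244 CPM (log2FC -0.33, adjusted p = 0.00951, not passed without cuprizone replicate 1). Hspa1a and its near-identical copy Hspa1b can share reads, so their values are uncertain.

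Of 18 genes that handle copper and other metals 6 were higher and 1 lower. Cp, ceruloplasmin, the copper-carrying ferroxidase, rose from 1.32, 1.20 and 1.43 to 4.10, 4.80 and 4.68 CPM (log2FC 1.81, adjusted p = 4.34e-04). Steap3, a metalloreductase for iron and copper, rose from 14.1, 11.5 and 13.1 to 29.3, 24.9 and 33.1 CPM (log2FC 1.20), and Slc30a1, a zinc exporter, from 15.0, 15.6 and 19.4 to 34.0, 27.8 and 25.3 CPM (log2FC 0.83). The metallothioneins, small metal buffers, were abundant and changed little. Mt1 stood at 361, 310 and 263 and 380, 380 and 437 CPM (log2FC 0.39, adjusted p = 0.0379), and Mt2 and Mt3 had log2 fold changes of 0.42 and 0.58. None of the 3 passed without cuprizone replicate 3, which leaves 3 higher genes in the list. Mt2 also missed the threshold without control replicate 3, and Mt1 passed without control replicate 1 but not without any other library.

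Cell cycle genes were lower on cuprizone. All 28 tested genes of the mitosis list fell (median log2 fold change -0.54), as did 14 of 34 DNA replication genes (median -0.26), and 0 of either list rose. Mki67, the proliferation marker Ki-67, stood at 281, 304 and 268 CPM on the control diet and at 161, 196 and 181 CPM on cuprizone (log2FC -0.64 ± 0.08, adjusted p = 8.55e-04). Ccnb1, the mitotic cyclin B1, fell from 220, 223 and 223 to 135, 148 and 152 CPM (log2FC -0.59), and Birc5 (survivin), of the chromosomal passenger complex, from 136, 116 and 122 to 67.9, 78.4 and 78.4 CPM (log2FC -0.71). In each of these genes the groups were apart and cuprizone replicate 1 was the lowest. Rrm2, the S phase subunit of ribonucleotide reductase, fell from 527, 494 and 511 to 290, 344 and 321 CPM (log2FC -0.66), and Tyms, thymidylate synthase, by 0.55 on the log2 scale. Of the helicase subunits Mcm6 stood at 422, 427 and 456 and 327, 390 and 372 CPM and Mcm7 at 432, 423 and 458 and 372, 422 and 407 CPM, without overlap between the diets, and neither passed (adjusted p = 0.0557 and 0.344). Between 23 and 28 mitosis genes fell without any 1 library. The replication count was 9 without control replicate 3 or cuprizone replicate 1 and 8 without cuprizone replicate 3. In edgeR's fit of all 12 libraries 0 genes of either list passed, with 0 mitosis and 2 replication genes lower at an unadjusted p under 0.05.

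Regulators of G1, the phase in which cells commit to division, went both ways, with 4 of 19 higher and 7 lower. Next to Cdkn1a, Ccnd1, cyclin D1, rose from 19.2, 20.9 and 20.4 to 34.5, 41.5 and 40.4 CPM (log2FC 0.97). Ccnd2, the much more abundant cyclin D2, fell from 3059, 2573 and 3100 to 2109, 2255 and 2316 CPM (log2FC -0.36, adjusted p = 0.0168), although it did not pass without control replicate 3 or without any 1 cuprizone library. E2f2, an activator of S phase genes, fell from 39.5, 49.7 and 48.5 to 24.2, 28.2 and 28.4 CPM (log2FC -0.74). Without cuprizone replicate 1 or 3 the list had 2 higher and 4 lower members.

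All 16 tested neuroblast markers were lower on cuprizone, with a median log2 fold change of -0.66. Dlx5, a homeobox factor of GABAergic neurons, stood at 155, 159 and 174 CPM on the control diet and at 74.4, 73.1 and 83.6 CPM on cuprizone (log2FC -1.05 ± 0.08, adjusted p = 8.22e-05). Igfbpl1, a secreted protein of newborn neurons, went from 186, 144 and 178 to 76.4, 76.7 and 86.1 CPM (log2FC -1.06), Tubb3, the neuronal beta-tubulin, from 644, 606 and 638 to 374, 340 and 396 CPM (log2FC -0.74) and Gad2, a GABA-synthesizing enzyme, from 204, 208 and 207 to 128, 128 and 130 CPM (log2FC -0.65). The levels within each diet were close to each other. The groups did not overlap, as for 22.5% of all tested genes in this direction. The summed level of the list was 6337 to 7000 CPM in the control and 4049 to 4487 CPM in the cuprizone libraries. All 16 were also lower in each fit without 1 library and by DESeq2, while 0 passed in edgeR's fit of all 12 libraries, where 1 was lower at an unadjusted p under 0.05.

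Of 19 transcription factors of the interneuron lineage 13 were lower and 0 higher (median -0.64). This list shares members with the neuroblast markers, Dlx5 among them, so their counts are not independent. The abundant members Dlx1 and Dlx2 fell from 1478, 1458 and 1520 to 873, 879 and 927 CPM (log2FC -0.71) and from 962, 999 and 1117 to 619, 648 and 677 CPM (log2FC -0.64). Both are homeobox genes that transit-amplifying cells and neuroblasts share. Isl1, a LIM homeobox factor of striatal and cholinergic neurons, had 143 counts over the control and 3 over the cuprizone libraries, a ratio of 0.0202 with a 95% counting interval of 0.00411 to 0.0601. Apart from Lhx6 and Isl1, the members that fell had log2 fold changes between -1.63 (Zic1) and -0.44 (Meis2, a homeobox factor of striatal and olfactory neurons), and Nkx2-1, which marks the same ventral lineage as Lhx6, did not pass (log2FC 0.41, adjusted p = 0.478). Meis2 and Nkx2-1 were picked after their values were seen. Markers of mature neurons had 2 of 13 lower, near the 10.6% of all tested genes that were lower, and 0 higher. The lower ones were Snap25, a synaptic vesicle fusion protein (log2FC -0.49), and Slc32a1, the vesicular GABA transporter (log2FC -0.75). Snap25 did not pass without cuprizone replicate 1, nor Slc32a1 without control replicate 3 or cuprizone replicate 2 or 3.

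The list of activated NSC and transit-amplifying markers split, with 3 of 13 higher and 6 lower. The higher members were Egfr, Olig2 and Ccnd1. Egfr, the receptor that marks activated NSCs, rose from 221, 243 and 285 to 342, 396 and 356 CPM (log2FC 0.57, adjusted p = 0.0032), and Olig2, the factor that sets the oligodendrocyte lineage, from 45.7, 32.2 and 41.5 to 86.3, 75.6 and 86.2 CPM (log2FC 1.08). The lower members included Dlx1, Dlx2, Mki67 and Top2a, a topoisomerase of dividing cells, which fell from 588, 642 and 656 to 417, 484 and 454 CPM (log2FC -0.45).

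Markers of quiescent NSCs and astrocytes, which share most of their genes, rose in part, with 11 of 24 higher and 1 lower (median log2 fold change 0.36). Gfap, the intermediate filament of astrocytes and NSCs, stood at 105, 99.7 and 85.1 CPM on the control diet and at 199, 200 and 265 CPM on cuprizone (log2FC 1.22 ± 0.13, adjusted p = 3.06e-04). Slc1a3 (GLAST), the glutamate transporter of radial glia, went from 3172, 2605 and 2932 to 5779, 4590 and 4888 CPM (log2FC 0.84), Vcam1, an adhesion molecule of quiescent NSCs, from 118, 103 and 121 to 220, 188 and 202 CPM (log2FC 0.86) and Fgfr3, an FGF receptor of astrocytes, from 341, 294 and 368 to 558, 513 and 537 CPM (log2FC 0.71). None of these 4 overlapped between the diets, as for 20.4% of all tested genes in this direction. Sox2, the stem cell factor, stood at 355, 377 and 409 and 463, 385 and 425 CPM and did not pass (log2FC 0.19, adjusted p = 0.181). Nes, the filament protein nestin, stood at 53.7, 70.5 and 91.1 and 41.4, 59.8 and 44.7 CPM with overlapping groups (log2FC -0.54, adjusted p = 0.0592), and it passed as lower with DESeq2. S100b, a calcium-binding protein of astrocytes, rose from 11.8, 9.38 and 9.48 to 22.1, 13.5 and 18.2 CPM (log2FC 0.84, adjusted p = 0.0136, not passed without cuprizone replicate 1), and Htra1, a secreted protease, stood at 508, 343 and 465 and 545, 413 and 550 CPM with overlapping groups (log2FC 0.23, adjusted p = 0.329). The list had 7 higher members without cuprizone replicate 1 and 2 in the fit of all 12 libraries.

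Of the oligodendrocyte lineage genes that passed, OPC markers were mostly higher and myelin markers mostly lower. Over all tested genes 14.3% were higher and 10.6% lower. The 1 lower OPC marker and the 2 higher myelin markers do not exceed those shares. Among 11 tested OPC markers 5 were higher and 1 lower, with 3 higher without cuprizone replicate 1 or 3. The sum of the OPC list overlapped between the diets, at 1747 to 1895 CPM on the control diet and 1789 to 2128 CPM on cuprizone. Olig1 rose from 40.6, 31.5 and 42.8 to 113, 96.6 and 99.9 CPM (log2FC 1.46 ± 0.12, adjusted p = 1.04e-04) and Cspg4 (NG2), a surface proteoglycan of OPCs and pericytes, from 3.32, 3.15 and 3.41 to 5.29, 6.03 and 7.24 CPM (log2FC 0.94). Pdgfra, the defining receptor of OPCs, was low and fell from 6.29, 2.79 and 5.16 to 0.751, 1.34 and 1.63 CPM (log2FC -1.91, adjusted p = 0.00493). Of 15 oligodendrocyte and myelin markers 7 were lower and 2 higher. Mbp, myelin basic protein, stood at 182, 287 and 203 CPM in control replicates 1, 2 and 3 and at 58.4, 30.9 and 116 CPM on cuprizone (log2FC -1.68 ± 0.39, adjusted p = 0.0122). Mobp, another myelin protein, stood at 49.9, 92.5 and 69.1 and 11.6, 11.6 and 42.9 CPM (log2FC -1.64, adjusted p = 0.0286). In both the libraries of each diet were uneven, with cuprizone replicate 3 closest to the controls. Between 2 and 7 myelin markers were lower without any 1 library (4 without control replicate 2, 2 without control replicate 3 or cuprizone replicate 1 or 2, and 3 without cuprizone replicate 3). Mbp did not pass without cuprizone replicate 1, nor Mobp with DESeq2, without control replicate 2 or 3 or without cuprizone replicate 1 or 2. The higher members were Myrf, the myelin regulatory factor (log2FC 1.70), and Cnp (log2FC 0.30), and neither passed without control replicate 1 or cuprizone replicate 1 or 3, nor Cnp without control replicate 2. Apc, used as a marker of mature oligodendrocytes, stood at 175, 227 and 188 and 169, 183 and 179 CPM with overlapping groups (log2FC -0.12, adjusted p = 0.378).

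Markers of other cells that the gate could hold were measured beside these. Of 14 ependymal and motile cilia markers 8 were higher and 1 lower, and the sum of the list was 469 to 593 CPM on the control diet and 844 to 1106 CPM on cuprizone. Most of that sum came from Tmem47, at 367, 482 and 396 and 932, 663 and 764 CPM. Foxj1, the master factor of motile cilia, rose from 14.4, 20.2 and 16.1 to 61.9, 61.7 and 54.2 CPM (log2FC 1.84 ± 0.13, adjusted p = 4.41e-05). Rarres2, another ependymal marker, stood at 31.9, 28.2 and 29.2 and 24.1, 30.7 and 30.3 CPM with overlapping groups (log2FC -0.04, adjusted p = 0.82). The list had 5 higher members without cuprizone replicate 1 or 2. Of 9 pericyte and mural markers 5 were higher and 0 lower, with sums of 103 to 130 and 188 to 212 CPM, most of it from Pdgfrb, which rose from 61.5, 65.1 and 76.6 to 122, 115 and 120 CPM (log2FC 0.84). Endothelial markers summed to 5.86 to 11.2 and 6.63 to 20.7 CPM over 10 tested genes, of which 1, the receptor Tek, was higher (3 without control replicate 2). Microglia markers summed to 71.7 to 100 and 103 to 121 CPM, and of 14 tested 1 was higher and 1, the fractalkine receptor Cx3cr1, lower (log2FC -1.22). Neither Tek nor Cx3cr1 passed without control replicate 3 or without cuprizone replicate 2 or 3, and Cx3cr1 did not without control replicate 1. Tmem119, which defines microglia, stood at 1.17 to 2.37 CPM on the control diet and at 0.108 to 1.05 CPM on cuprizone and did not pass (log2FC -1.54, adjusted p = 0.0837). The microglial marker Aif1 had 11, 5 and 0 counts on the control diet and 1, 0 and 0 on cuprizone, and the endothelial marker Cdh5 0, 6 and 2 and 1, 1 and 13 counts, both too few to be tested. None of the markers of these 4 cell types was at 0 in all 6 libraries, and the part of such cells in the other results was not tested.

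**Figure D3:**
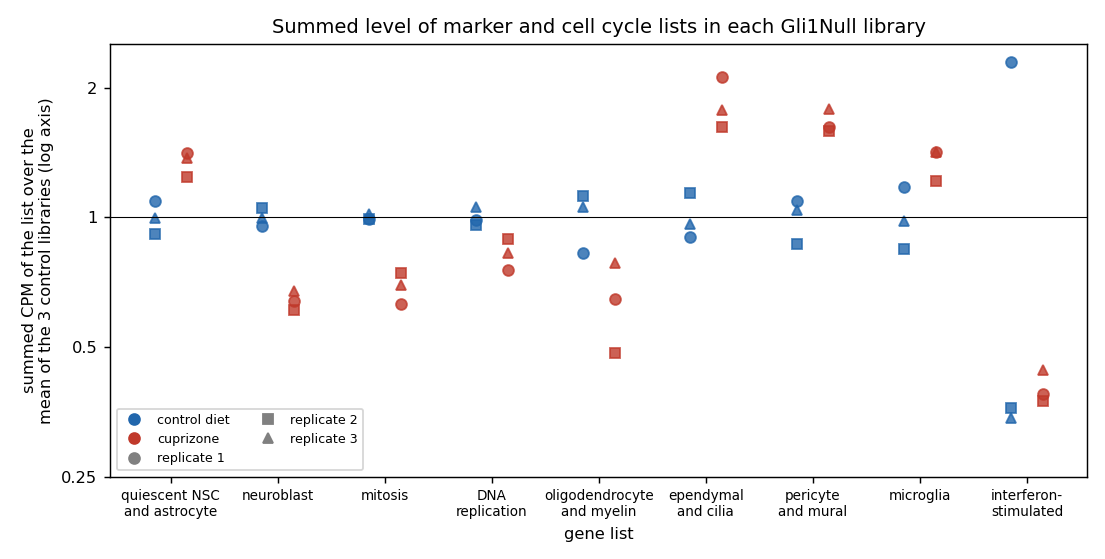
Summed CPM of 9 gene lists in each Gli1Null library, divided by the mean of the 3 control libraries (log axis), with control diet in blue, cuprizone in red and marker shapes for replicates 1 to 3. The cuprizone libraries lie below all controls for neuroblast, mitosis, DNA replication and myelin genes and above all controls for the quiescent NSC, ependymal, pericyte and microglia lists, while control replicate 1 alone is high for interferon-stimulated genes (1341 CPM against 200 to 258 CPM in the other 5 libraries). Most of the ependymal sum comes from Tmem47 and most of the pericyte sum from Pdgfrb.

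Members of developmental signalling pathways were mostly higher where they changed. In the Hedgehog pathway, which ends in the GLI factors, 6 of 13 tested genes were higher and 1 lower (median log2 fold change 0.65). Ptch1, the receptor and a target of the pathway, stood at 79.1, 71.7 and 87.3 CPM on the control diet and at 161, 147 and 131 CPM on cuprizone (log2FC 0.91 ± 0.10, adjusted p = 4.11e-04). Smo, the signal transducer that Ptch1 inhibits, went from 86.8, 85.8 and 97.1 to 157, 146 and 150 CPM (log2FC 0.78), and the co-receptors Boc and Gas1 had log2 fold changes of 0.65 and 0.82. Gli3, which acts mainly as a repressor, rose by 0.47 on the log2 scale (not passed without cuprizone replicate 1), and Sufu, a cytoplasmic inhibitor, stood at 77.0, 83.5 and 83.0 and 76.0, 80.1 and 81.1 CPM with overlapping groups. In the fit of all 12 libraries 2 members were higher, and neither Ptch1, Boc, Gas1 nor Gli3 passed there.

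In the Notch pathway, which holds NSCs in quiescence, 10 of 20 were higher and 0 lower (median 0.41). The target Hey1 rose from 23.2, 21.8 and 24.1 to 54.0, 42.7 and 44.7 CPM (log2FC 1.06), Heyl from 9.28, 9.80 and 10.1 to 21.3, 19.9 and 17.8 CPM (log2FC 1.04) and the feedback inhibitor Nrarp from 121, 121 and 133 to 205, 178 and 196 CPM (log2FC 0.66). The ligand Jag1 rose by 0.57 on the log2 scale. Among 20 Wnt inhibitors and targets 11 were higher and 0 lower, including the ligand Wnt7b, from 108, 92.0 and 107 to 177, 203 and 197 CPM (log2FC 0.94), the secreted inhibitors Sfrp5 (log2FC 1.46) and Dkk3 (log2FC 0.66) and the intracellular inhibitor Nkd1 (log2FC 0.71). The Wnt count was 6 without control replicate 3 or cuprizone replicate 1 and 7 without cuprizone replicate 3. Of 23 BMP and TGF-beta genes 8 were higher and 0 lower. The ligand Bmp7 rose from 16.0, 10.1 and 16.0 to 45.5, 28.1 and 38.5 CPM (log2FC 1.44), its antagonist Nog from 3.69, 7.46 and 3.30 to 13.9, 15.0 and 11.8 CPM (log2FC 1.52) and the inhibitory Smad6 from 3.13, 1.91 and 2.75 to 8.79, 7.07 and 9.06 CPM (log2FC 1.71), so that ligand and inhibitors were both higher. Of 20 genes of EGF receptor signalling and ERK feedback 12 were higher and 2 lower (median 0.61). Lrig1, which degrades EGFR, rose from 52.3, 48.3 and 64.2 to 151, 146 and 133 CPM (log2FC 1.41 ± 0.11, adjusted p = 7.12e-05), Etv5, an ETS factor downstream of ERK, from 73.6, 69.3 and 101 to 198, 177 and 178 CPM (log2FC 1.21) and Dusp6, an ERK phosphatase, from 25.8, 24.2 and 23.1 to 54.4, 42.3 and 48.2 CPM (log2FC 1.02).

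Among NF-kB targets and genes of IL-6 family signalling 11 of 18 were higher and 0 lower (median log2 fold change 0.82). Osmr, the receptor of oncostatin M, rose from 3.65, 2.43 and 1.90 to 16.7, 16.0 and 14.7 CPM (log2FC 2.59 ± 0.23, adjusted p = 1.29e-04), and its partner chain Il6st (gp130) from 58.9, 71.7 and 61.1 to 106, 122 and 109 CPM (log2FC 0.84). Stat3, the factor these receptors activate, rose from 114, 113 and 113 to 152, 151 and 162 CPM (log2FC 0.48). Within the control diet the 3 levels of Stat3 were almost the same. The feedback inhibitor Nfkbia stood at 70.3, 39.9 and 39.4 and 44.7, 51.9 and 51.3 CPM with overlapping groups and did not pass (log2FC 0.01, adjusted p = 0.979). Immediate early genes had 7 of 26 higher and 0 lower, led by Fosl2, an AP-1 subunit, from 0.955, 1.01 and 1.35 to 3.63, 7.11 and 3.63 CPM (log2FC 2.13). That count was 12 without control replicate 3 and 3 without cuprizone replicate 2.

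Interferon-stimulated genes were set by a single library. Control replicate 1 summed to 1341 CPM over the list, and the other 5 libraries to 200 to 258 CPM. Irf7, an amplifier of the interferon response, stood at 48.4, 1.33 and 0.696 CPM in control replicates 1, 2 and 3 and at 1.06, 1.23 and 2.31 CPM on cuprizone, and Isg15, a ubiquitin-like modifier, at 32.6, 0.519 and 0.586 and 0.876, 0.722 and 1.29 CPM. Neither passed (adjusted p = 0.0822 and 0.0833). Of 19 tested genes 0 were higher and 1 lower with all 6 libraries, the lower one being Stat2 (log2FC -0.72). Without control replicate 1 there were 9 higher, and without control replicate 2 or 3, which leaves it more weight, 6 or 8 lower. MHC class I genes had 1 of 13 higher and 1 lower with all 6 libraries and 6 higher without control replicate 1. H2-K1, a classical class I heavy chain, stood at 100, 59.7 and 56.5 and 92.6, 92.9 and 91.5 CPM, so that control replicate 1 was near the cuprizone libraries and the other 2 controls were lower.

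Metabolic and structural genes were also counted. Of 20 tested genes of cholesterol synthesis 14 were lower and 0 higher (median log2 fold change -0.46). Fdft1, squalene synthase, fell from 205, 182 and 186 to 107, 96.4 and 101 CPM (log2FC -0.88 ± 0.08, adjusted p = 1.74e-04), Cyp51, a demethylase of the sterol ring, from 164, 162 and 189 to 104, 105 and 102 CPM (log2FC -0.70) and Fdps, for farnesyl diphosphate, by 0.79 on the log2 scale. Srebf2, the factor that induces the pathway, stood at 260, 233 and 288 and 200, 207 and 224 CPM without overlap and did not pass (log2FC -0.28, adjusted p = 0.0526), though it did with DESeq2. Without cuprizone replicate 3 the count was 8. Of 23 glycolysis and hypoxia genes 10 were higher and 2 lower, led by Vegfa, the vascular growth factor, from 105, 117 and 132 to 418, 322 and 291 CPM (log2FC 1.57), and Slc2a1 (GLUT1), the glucose transporter, from 116, 115 and 96.2 to 232, 208 and 197 CPM (log2FC 0.99). Pkm, a late enzyme of glycolysis, stood at 813, 732 and 856 and 751, 814 and 832 CPM with overlapping groups (log2FC 0.02, adjusted p = 0.859).

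Autophagy and lysosome genes had 12 of 26 higher and 0 lower. Ctsl, the protease cathepsin L, rose from 140, 107 and 135 to 348, 355 and 293 CPM (log2FC 1.41), and Lamp1, a lysosomal membrane protein, from 598, 511 and 587 to 797, 729 and 791 CPM (log2FC 0.48). Of 28 collagens, laminins and integrins 16 were higher and 1 lower (median 0.62), with Itga6, a laminin receptor of NSCs, rising from 27.6, 26.4 and 30.7 to 76.9, 67.4 and 62.1 CPM (log2FC 1.31) and Itgb1, the shared beta chain, at 250, 268 and 290 and 263, 282 and 242 CPM (log2FC -0.01, adjusted p = 0.936). Annexins, calcium-dependent membrane-binding proteins, and their S100 partners had 7 of 10 higher and 0 lower, and 3 higher without cuprizone replicate 3. Anxa5 rose from 59.6, 65.1 and 55.6 to 103, 105 and 91.1 CPM (log2FC 0.76). Of 13 IGF binding proteins and receptors 3 were higher, and beside Igfbp3 these included Igfbp4, from 16.4, 16.6 and 15.6 to 56.2, 57.9 and 43.0 CPM (log2FC 1.72). Few members of the translation and degradation machines passed, with 3 of 55 ribosomal proteins higher (24 without control replicate 1 and 1 without cuprizone replicate 3) and 1 of 31 proteasome subunits lower (4 without control replicate 2). Many ribosomal protein genes have pseudogene copies that can take or lose reads, so their values are uncertain.

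**Figure D4:**
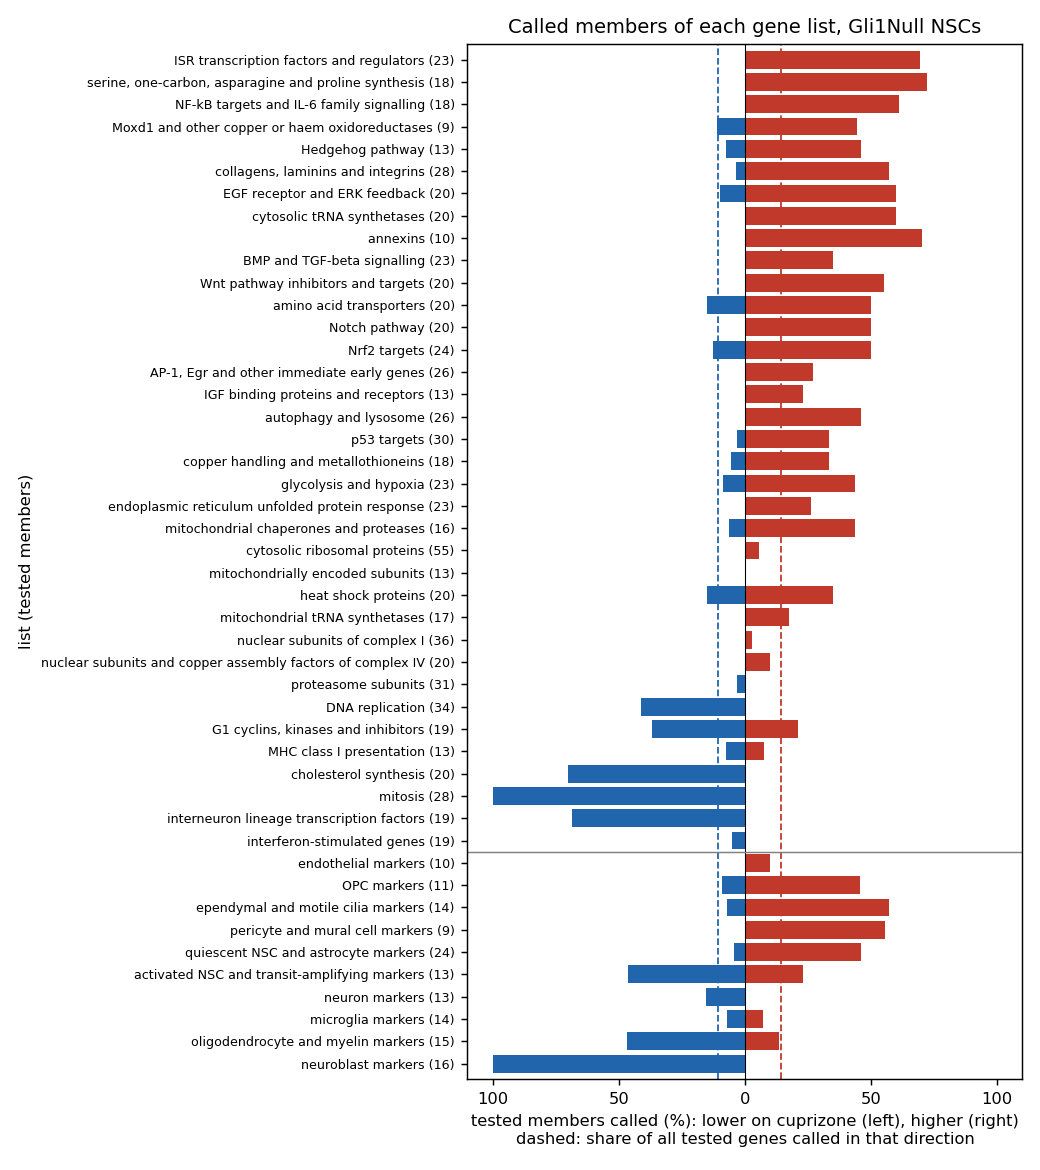
Share of the tested members of each of 46 gene lists that were lower (blue, left) or higher (red, right) on cuprizone in Gli1Null NSCs, with the number of tested members in brackets, pathways above the grey line and cell types under it. All 16 neuroblast and all 28 mitosis genes were lower, against 10.6% of all tested genes (blue dashed line), and 16 of 23 ISR genes were higher, against 14.3% (red dashed line).

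The response of Gli1Null NSCs was set beside that of Gli1Het NSCs, to ask whether loss of Gli1 alters what the diet does. In 1 fit of the 12 libraries the diets differed in 3306 higher (18.8%) and 2689 lower (15.3%) genes in Gli1Het NSCs and in 594 higher (3.37%) and 44 lower (0.250%) genes in Gli1Null NSCs. Such counts do not test the difference. The interaction of genotype and diet, which does, gave 0 genes by edgeR, with 1591 of 17623 at an unadjusted p under 0.05. DESeq2 called 62 genes (16 with a higher and 46 with a lower response in Gli1Null NSCs) and limma with library quality weights 2724. Without Gli1Het cuprizone replicate 1 edgeR called 1714. Leaving out any other single library gave 0 calls, also for the library labelled Gli1Het cuprizone replicate 2, whose Gli1 level of 0.837 CPM was near those of the Gli1Null libraries.

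For genes of the stress response the levels in both genotypes are given side by side. Slc7a5 was at 176, 139 and 135 CPM in Gli1Het control and at 1090, 922 and 1291 CPM in Gli1Het cuprizone libraries, and the difference of the log2 fold changes, Gli1Null minus Gli1Het, was 0.05 ± 0.24 (interaction adjusted p = 0.944). For Atf5 it was -0.12 ± 0.24 and for Trim66 -0.04 ± 0.31. Other genes were higher in Gli1Het cuprizone libraries, though the interaction passed for none of them. Gpnmb, a glycoprotein of phagocytes and stressed cells, had the smallest interaction p of the genes at 5 CPM or more. It stood at 1.45, 0.630 and 2.42 CPM in Gli1Het control, 21.1, 25.5 and 19.1 CPM in Gli1Het cuprizone, 1.28, 1.78 and 1.43 CPM in Gli1Null control and 2.32, 1.55 and 2.09 CPM in Gli1Null cuprizone libraries (difference -3.41 ± 0.53, adjusted p = 0.323). Each Gli1Het cuprizone library was thus above every Gli1Null library. Cdkn1a stood at 185, 1648 and 411 CPM in Gli1Het cuprizone replicates 1, 2 and 3, against 145, 130 and 136 CPM in Gli1Null (difference -2.31 ± 0.80, adjusted p = 0.543), and Ephx1 at 100, 1212 and 495 against 46.5, 49.5 and 47.8 CPM (log2 difference -3.68 ± 0.87, adjusted p = 0.543). Clcf1, a cytokine of the IL-6 family, stood at 6.84, 76.6 and 32.3 against 1.31, 2.42 and 1.72 CPM (log2 difference -5.14 ± 1.13). In these 3 the Gli1Het cuprizone libraries spread over several-fold, with replicate 2 highest, and the Gli1Null libraries were close together.

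A few genes lay the other way. Agt, angiotensinogen, an astrocyte product, stood at 121, 257 and 138 CPM in Gli1Null cuprizone and at 86.6, 72.3 and 106 CPM in Gli1Het cuprizone libraries, from 33.8, 30.1 and 44.3 and 49.2, 70.0 and 61.5 CPM on the control diet (difference 1.73 ± 0.38, adjusted p = 0.543). Bard1, the partner of the repair factor BRCA1, rose in Gli1Null from 8.20, 5.39 and 7.29 to 20.1, 19.7 and 10.9 CPM (log2FC 1.31, adjusted p = 0.00516) and stood at 8.29, 12.5 and 8.01 and 5.24, 4.82 and 5.83 CPM in Gli1Het (difference 2.18 ± 0.39, adjusted p = 0.543). For the fallen genes Dlx5 and Mki67 the log2 fold changes were -1.05 and -0.64 in Gli1Null and -2.37 and -1.46 in Gli1Het, and the interaction did not pass (adjusted p = 0.58 and 0.6).

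**Figure D5:**
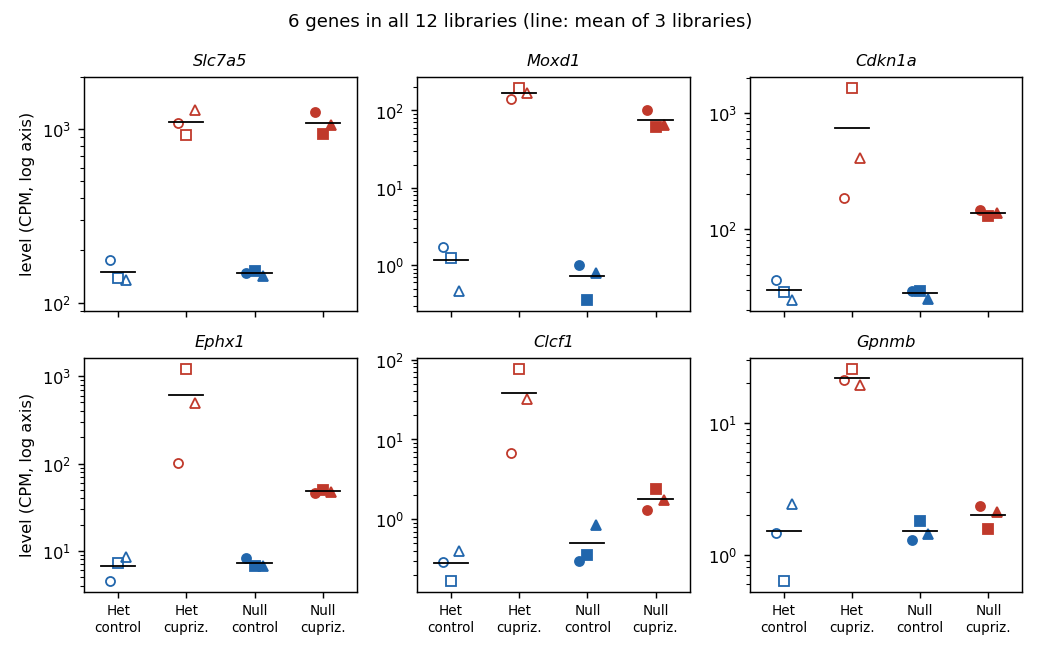
Level (CPM, log axes) of Slc7a5, Moxd1, Cdkn1a, Ephx1, Clcf1 and Gpnmb in all 12 libraries, with open symbols for Gli1Het and filled symbols for Gli1Null, control diet in blue, cuprizone in red, marker shapes for replicates 1 to 3 and a line at the mean of each group. Slc7a5 reached 944 to 1265 CPM in Gli1Null and 922 to 1291 CPM in Gli1Het cuprizone libraries, whereas Cdkn1a reached 130 to 145 CPM in the former and 185 to 1648 CPM in the latter.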

How the data were processed

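The deposited values come from a pipeline in which, according to the paper and the processing notes, FastQC 0.11.5, TopHat2 2.1.1 on mm10, HTSeq 0.11.1 and DESeq2 1.12 were used for read quality, alignment, counting and testing. Which Ensembl release and strand setting HTSeq used is not given in the sources used here. The SMART-Seq kit does not mark strand, so overlapping genes may share or lose reads. The authors deposited raw read counts per gene and library, held in cells of other text (a gene ID and its count). The ID in the cell was used, because in 33998 lines the first column named another gene. They also deposited a signal, namely these counts after division by a size factor for each library. After multiplication by that factor 100% of the values were whole within 0.01, and edgeR called 4193 genes on these recovered reads too, a check added after the data were seen. The table held 37991 genes. Summary lines of HTSeq entered neither totals nor tests, and reads in no annotated feature were 54.5% to 57.5% of the aligned reads in the 6 libraries. The number of unused columns with values of a sample was 0.

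Libraries were grouped by their labels. Counts of the 6 Gli1Null libraries were filtered with edgeR's filter (minimum count 10), scaled by TMM and fitted by quasi-likelihood with edgeR 4.0.16 in R 4.3.3 at an adjusted p of 0.05. The interaction was fitted on all 12 libraries. Standard errors were obtained by dividing log2 fold changes by the root of the F statistic. CPM are counts scaled to the library's total in genes. With 1 to 3 counts in a group, the ratio has an exact 95% binomial interval, and intervals and floors (3 counts over the group) cover counting error only. Coordinates come from GENCODE M21 on mm10 and promoters from RefSeq on GRCm38.p6. The genes eligible to be named were Gli1 and the study's markers, the 12 largest rises and falls at 5 CPM or more without overlap, the 8 smallest p-values, up to 6 members of each list and 6 genes of the interaction. The comparison, the 46 lists and this rule were chosen with earlier results of these data known. Alternatives were DESeq2 1.42.0, all 12 libraries in 1 fit, DESeq2 size factors, no filter, limma 3.58.1 voom with quality weights, a replicate block and each library left out. A few genes that the rule would name are not reported here. A check of the tests on simulated counts is not reported here. Figures were drawn with matplotlib 3.10.9.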

Additional observations from a re-analysis of the deposited data

How the results depend on the processing

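Against 4193 genes called in the 6 libraries (2407 higher, 1786 lower), edgeR on all 12 libraries called 638 (594 higher, 44 lower), of which 636 were shared. In that fit the biological coefficient of variation was 0.257, against 0.151 in the 6 libraries. Leaving out 1 library gave 2359 to 4149 calls (1532 to 2408 higher, 827 to 1741 lower), the lowest without cuprizone replicate 1, and 1079 genes were lower without cuprizone replicate 2 and 929 without cuprizone replicate 3. DESeq2 called 4733, DESeq2 size factors in edgeR 4193, no filter 4315 and limma with quality weights 4415. Libraries of the same number did not deviate together (correlations 0.0295, 0.125 and -0.0385), and a fit with the replicate block called 3717. In the interaction, with 0 calls by edgeR, DESeq2 called 62, limma with quality weights 2724, the replicate block 0, and fits without 1 library 0 to 1714, the highest without Gli1Het cuprizone replicate 1. The cause of these differences was not tested. Over the named genes and alternatives 3472 values kept their side of the threshold, 252 no longer passed, 85 newly passed and 0 reversed, and of the counts of list members 982 stayed within 1.5 times the main count and 214 did not.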

Other observations

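The families described here were chosen after their values were seen, and each count is to be read against the 14.3% of all tested genes that were higher and the 10.6% that were lower on cuprizone. Beyond the list of ependymal markers, genes of the ciliary axoneme were in part higher. Of 21 tested cilia- and flagella-associated proteins 10 were higher and 0 lower (median log2 fold change 0.46), and Cfap52 stood at 1.91, 3.93 and 3.19 CPM on the control diet and at 11.2, 11.1 and 9.58 CPM on cuprizone (log2FC 1.85). Of 11 axonemal dynein heavy chains, the motors of motile cilia, 3 were higher and 0 lower (median -0.11), with Dnah6 going from 0.823, 1.07 and 0.732 to 3.22, 4.37 and 3.48 CPM (log2FC 2.09). Of 15 intraflagellar transport proteins, which also build primary cilia, 1 was higher and 0 lower. Of 40 tested kinesins 19 were lower and 5 higher, and the higher count does not exceed the share over all tested genes. Kif27, a kinesin of motile cilia, rose from 3.09, 3.54 and 3.74 to 11.7, 10.6 and 8.78 CPM (log2FC 1.62), while the mitotic Kif18b fell from 89.1, 91.9 and 98.0 to 51.7, 68.1 and 57.4 CPM (log2FC -0.63).

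Histone genes had 0 of 47 higher and 14 lower (median log2 fold change -0.49). The variant H2afx, which marks DNA breaks when phosphorylated, fell from 319, 250 and 321 to 196, 209 and 200 CPM (log2FC -0.53). Copies of histone genes are nearly identical, so single values are uncertain. Of 15 Kruppel-like factors 6 were higher and 4 lower. Klf9, a glucocorticoid-induced factor, rose from 85.8, 76.3 and 65.1 to 166, 165 and 169 CPM (log2FC 1.16), and Klf15, another such factor, from 105, 81.4 and 65.5 to 229, 193 and 209 CPM (log2FC 1.35). Among the genes that passed, 1 higher gene had no count on the control diet and 1 lower gene none on cuprizone. Cyp2c44, a cytochrome P450, had 0 counts over the control and 81 over the cuprizone libraries, at least 25.9-fold higher against a floor of 3 counts over the group. Lin28a, an RNA-binding protein of early development, had 59 and 0 counts, at least 20.5-fold lower.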
